A study of Mus musculus with 8 samples.

Results

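The C/D box small nucleolar RNA (snoRNA) genes on the array were taken as all genes whose symbol starts with Snord. Probe sets with 1 gene symbol were used, and the probe set with the highest mean over the arrays stood for its gene. This gave 44 genes on 47 probe sets, of 29915 genes measured. A further 25 probe sets carry a Snord symbol together with other symbols, so their signal cannot be assigned to the snoRNA, and they were kept out. The samples were long-term haematopoietic stem cells (LT-HSC), the bone marrow cells that sustain blood formation over a lifetime, isolated from mice by the gate Lin- cKit+ Sca+ with CD150+, CD48- and Flk2-. The 4 groups were CD169-DTR 2 Gy, CD169-DTR non-irradiated, WT 2 Gy and WT non-irradiated, with 2 arrays each. CD169-DTR mice (CD169DTR/+) carry 1 copy of a diphtheria toxin receptor driven by the gene of CD169, a surface protein of macrophages encoded by Siglec1, and WT mice do not carry it. Mice of all 4 groups received diphtheria toxin 72 h before total body irradiation with 2 Gy or a sham treatment, and the cells were isolated on day 5. The toxin is meant to remove CD169+ macrophages from the CD169-DTR mice, so the 2 genotypes differ in the toxin receptor and all share the toxin.

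Box C/D snoRNAs are short nucleolar RNAs that bind the methyltransferase fibrillarin (Fbl) together with the core proteins Nop56, Nop58 and Snu13. Most pair with ribosomal RNA (rRNA) and guide methylation of a ribose there. A few act in the maturation of the rRNA precursor: Snord118 (also called U8) and Snord14 (U14) are needed for its cleavage, and Snord13 (U13) pairs with the small-subunit rRNA. In mammals most are cut out of introns of host genes, many of which encode ribosomal proteins or translation factors, so that the snoRNA and the spliced host RNA come from the same transcript but can reach different levels. According to positions in the RefSeq gene table, 40 of the 44 genes lie within another gene. Strand and introns were not checked, so a gene that contains a snoRNA gene need not be its host. One host, Rpl13a, carries snoRNAs that are known from the cell's response to lipid overload.

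The values are log2 signals made with robust multi-array averaging (RMA), and the array gives no call of presence or absence. Medians of the 8 arrays lay between 4.76 and 4.93, their lower quartiles between 3.85 and 4.04, and the Pearson r between replicates, over all probe sets, ran from 0.991 to 0.994. Cdkn1a, the p53-induced cell cycle inhibitor that marks a response to irradiation, averaged 13.24 ± 0.01 in CD169-DTR 2 Gy and 9.57 ± 0.32 in CD169-DTR non-irradiated cells. It averaged 13.24 ± 0.25 in WT 2 Gy and 8.13 ± 0.37 in WT non-irradiated cells (SD, n = 2 each). Its 2 Gy difference passed an adjusted p under 0.05 in WT (5.11 log2, adjusted p = 0.0073 in limma). In CD169-DTR the difference of Cdkn1a was 3.67 log2 and did not pass (adjusted p = 0.0622 in limma). A gene that does not pass in CD169-DTR is therefore not shown to be unchanged. Siglec1 lay between 3.86 and 4.12 on the 8 arrays. The stem cell marker Kit had 14.25 to 14.36 on the 4 arrays of irradiated cells, against 14.66 to 14.93 on the 4 arrays of non-irradiated cells. Hlf, a stem cell transcription factor gene, had 12.44 to 12.70 on the irradiated arrays, against 12.94 to 13.33 on the non-irradiated arrays. Ctnnal1, another LT-HSC marker, went the other way, with 7.76 to 8.36 on the irradiated arrays, against 7.26 to 7.66. Of the 7 LT-HSC markers, 3 were higher and 4 lower after 2 Gy in each genotype. Of the proteins that the gate excludes, Cd48 differed by 1.44 log2 after 2 Gy in both genotypes, and Flt3 by -1.63 in CD169-DTR and -1.01 in WT. Mean signals of the 7 LT-HSC markers ranged from 9.79 to 10.2. Some marker lists of other blood cells moved with the groups, but not alike in both genotypes. The 10 neutrophil and progenitor markers averaged 10.2 and 10.9 on the WT 2 Gy arrays, against 7.93 and 8.89 on the WT non-irradiated arrays. The 6 mast cell, basophil and eosinophil markers averaged 9.52 and 9.15 on the CD169-DTR 2 Gy arrays, against 7.25 and 7.71 on the CD169-DTR non-irradiated arrays. In WT cells they averaged 8.36 and 9.13 on the 2 Gy arrays, against 9.23 and 7.96 on the non-irradiated arrays. One of them, Prg2, had 3.39 and 12.93 on the CD169-DTR non-irradiated arrays. None of the genes of the marker and gate lists passed the test in any comparison, and their part in the values below was not tested. On the first principal component of all probe sets, the 2 arrays far from the rest were both of irradiated cells, replicate 2 of CD169-DTR and replicate 1 of WT.

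The 44 genes spanned nearly the whole range of signal on the array. Of them, 12 were bright, with a mean above the 75th percentile of all probe sets (7.9), 7 were dim, at or below the 40th percentile (4.4), and 25 lay between. The brightest was Snord104, which in human guides a site in the large-subunit rRNA, with signals from 12.49 to 13.43. Snord61, a guide of the small-subunit rRNA that lies within Rbmx, followed with 11.06 to 13.65. Snord13 ranged from 10.73 to 12.24. Next came Snord71 (8.20 to 11.92), Snord58b (8.62 to 10.63) and Snord92 (8.02 to 10.88), which lie within Ap1g1, Rpl17 and Wdr43. At the other end, Snord88c stayed between 3.43 and 3.74, Snord110 between 2.99 and 5.45, and Snord111 between 3.17 and 4.96. Snord88c therefore lay below the lower quartile on every array, and Snord110 and Snord111 lay below it on most arrays. Because probe sets differ in how they bind, a brighter probe set does not mean a more abundant snoRNA.

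**Figure D1:**
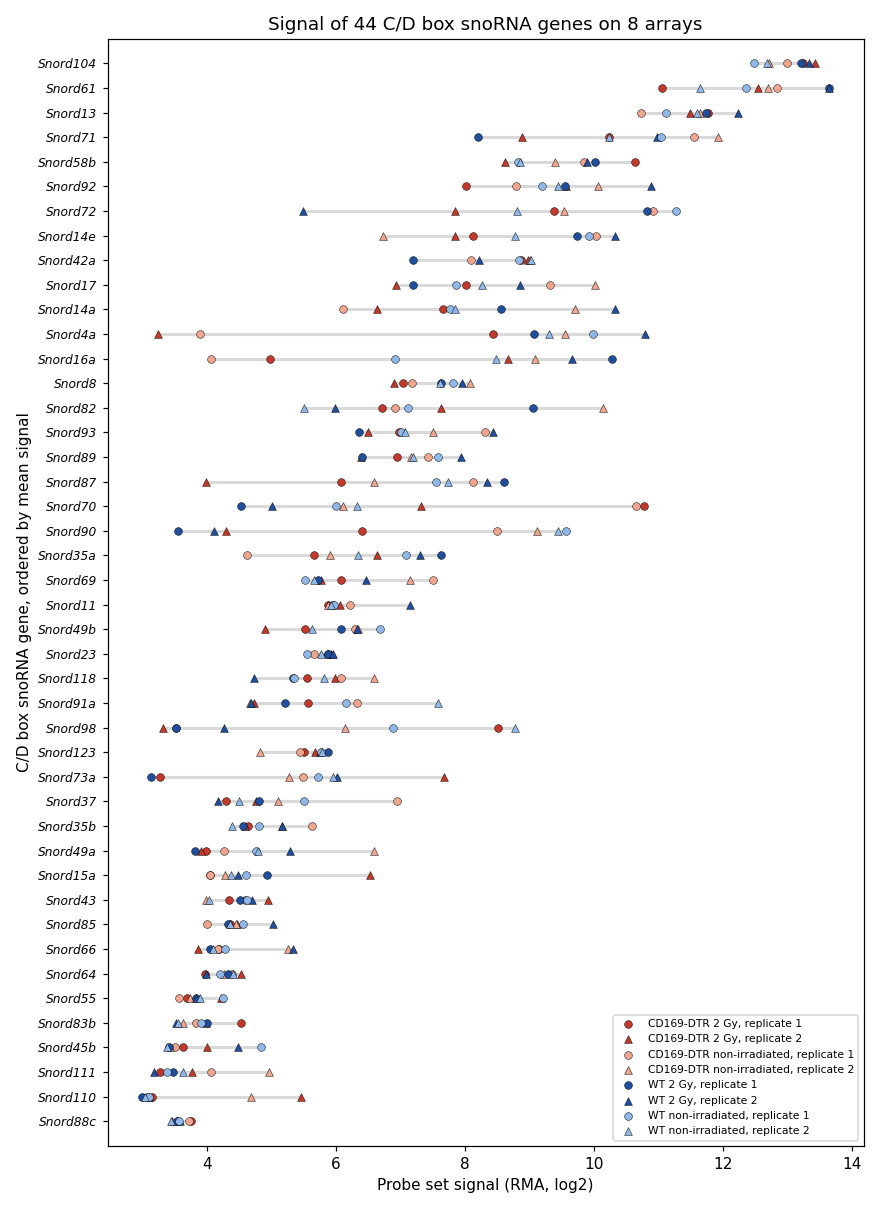
Log2 signal of each of the 44 C/D box snoRNA genes (rows, ordered by mean) on the 8 arrays, with the group shown by colour and the replicate by circle or triangle; the grey line spans the lowest to the highest array. Snord104 and Snord88c hold all 8 arrays close together, while Snord4a spans 3.24 to 10.79.

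Replicates of the snoRNA genes agreed far less well than those of other probe sets. The residual SD, which is the spread between the 2 arrays of a group pooled over the 4 groups, had a median of 0.649 log2 over the 44 genes, against 0.182 over all 30294 probe sets tested. It was above that median of all probe sets for 41 of the 44 genes. It exceeded 1 log2 unit, which is a factor of 2 in signal, for 10 of the 44 genes (22.7%), against 0.736% of all probe sets. Of the 176 replicate pairs (44 genes in 4 groups), 56 (31.8%) differed by more than 1 log2 unit and 24 (13.6%) by more than 2, against 2.40% and 0.338% of all pairs. The median difference within a pair was 0.53 log2 for the snoRNA genes and 0.18 for all probe sets.

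The spread was not confined to dim probe sets. Among bright genes the median residual SD was 0.804 for the snoRNAs and 0.210 for all probe sets, among those between it was 0.642 and 0.221, and among dim ones 0.296 and 0.141. Other small RNAs stood between or beside these values. The 24 genes of H/ACA box and Cajal body RNAs (Snora and Scarna), which guide pseudouridylation and modify spliceosomal RNAs, had a median residual SD of 0.549. It exceeded 1 log2 unit for 6 of these 24 genes (25%), beside 22.7% of the C/D box genes, and 25% of their replicate pairs differed by more than 1 log2 unit, beside 31.8%. The 596 microRNA genes (Mir) had 0.237, and 19035 protein-coding genes had 0.175. In the 25 probe sets that carry a Snord symbol and other symbols, it was 0.202, and 3 of their 100 replicate pairs differed by more than 1 log2 unit.

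**Figure D2:**
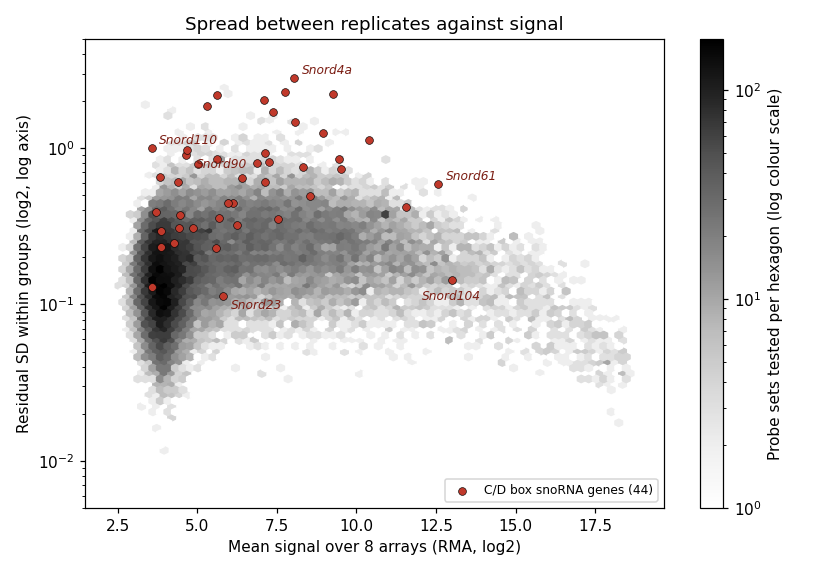
Residual SD within groups (log2 units, log axis) against mean signal over 8 arrays (log2) for the 30294 probe sets tested (grey hexagons, darker for more probe sets) and the 44 C/D box snoRNA genes (red points). The snoRNA genes lie in the upper part of the cloud from dim to bright signal, with Snord4a highest, while Snord104 and Snord23 lie within it.

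The 6 genes of largest mean replicate difference were Snord4a, Snord16a, Snord72, Snord98, Snord70 and Snord82. Snord4a, which lies within the ribosomal protein gene Rpl23a and in human guides the small-subunit rRNA, had 8.44 and 3.24 in CD169-DTR 2 Gy and 3.88 and 9.55 in CD169-DTR non-irradiated cells. It had 9.07 and 10.79 in WT 2 Gy and 9.99 and 9.30 in WT non-irradiated cells. The gene thus stood near the lower quartile of the array on 1 CD169-DTR array of each treatment and high on the other 6 arrays. Snord16a, within Rpl4, had 4.97 and 8.67 in CD169-DTR 2 Gy, 4.06 and 9.08 in CD169-DTR non-irradiated, 10.28 and 9.66 in WT 2 Gy and 6.92 and 8.48 in WT non-irradiated cells. Its 2 lowest arrays were both CD169-DTR replicate 1. Snord98, within Ccar1, had 8.51 and 3.31 in CD169-DTR 2 Gy, 3.51 and 6.13 in CD169-DTR non-irradiated, 3.51 and 4.26 in WT 2 Gy and 6.88 and 8.77 in WT non-irradiated cells. Here low arrays occurred in 3 of the 4 groups.

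Snord72, within Rpl37, had 9.38 and 7.85 in CD169-DTR 2 Gy, 10.92 and 9.53 in CD169-DTR non-irradiated, 10.83 and 5.49 in WT 2 Gy and 11.27 and 8.80 in WT non-irradiated cells. Replicate 1 was the higher array of this gene in all 4 groups. Snord70, within the gene of the core protein Nop58, had 10.78 and 7.31 in CD169-DTR 2 Gy, 10.65 and 6.10 in CD169-DTR non-irradiated, 4.52 and 5.00 in WT 2 Gy and 6.0 and 6.32 in WT non-irradiated cells. Both replicates were low in the WT groups, and the CD169-DTR groups held 1 high array each and 1 lower one. Snord82, within the nucleolin gene Ncl, had 6.71 and 7.62 in CD169-DTR 2 Gy, 6.91 and 10.14 in CD169-DTR non-irradiated, 9.05 and 5.98 in WT 2 Gy and 7.12 and 5.50 in WT non-irradiated cells. None of these 6 genes passed the adjusted test in any comparison. The 4 genes with the closest replicates were Snord23, Snord88c, Snord104 and Snord123, with mean replicate differences of 0.14, 0.16, 0.19 and 0.23 log2.

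Across the 44 genes, the 2 arrays of a group correlated with a Pearson r of 0.742 in CD169-DTR 2 Gy, 0.768 in CD169-DTR non-irradiated, 0.886 in WT 2 Gy and 0.951 in WT non-irradiated cells. Spearman's rho for these groups was 0.612, 0.740, 0.864 and 0.945. These coefficients run across genes, which are not independent replicates, and they share the overall brightness of each probe set. The pairs that differed by more than 2 log2 units numbered 10, 8, 5 and 1 in the same order of groups. Those that differed by more than 1 log2 unit numbered 16, 16, 15 and 9. Among the Snora and Scarna genes, the pairs more than 2 log2 units apart numbered 1, 3, 4 and 0. WT non-irradiated arrays agreed best for other probe sets too: over all probe sets the r was 0.991 in each of the other 3 groups, against 0.994 in WT non-irradiated cells. For the Snora and Scarna genes it was 0.857 in CD169-DTR 2 Gy, 0.775 in CD169-DTR non-irradiated, 0.704 in WT 2 Gy and 0.931 in WT non-irradiated cells. Whether the groups differ in agreement was not tested. The r between 2 arrays of the same group (median 0.827) was close to the r between arrays of different groups (median 0.818). Over all probe sets these medians were likewise close, at 0.991 and 0.990. In 19 of the 44 genes (43.2%), the mean square within groups was larger than that between groups, as it was in 44% of all probe sets.

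**Figure D3:**
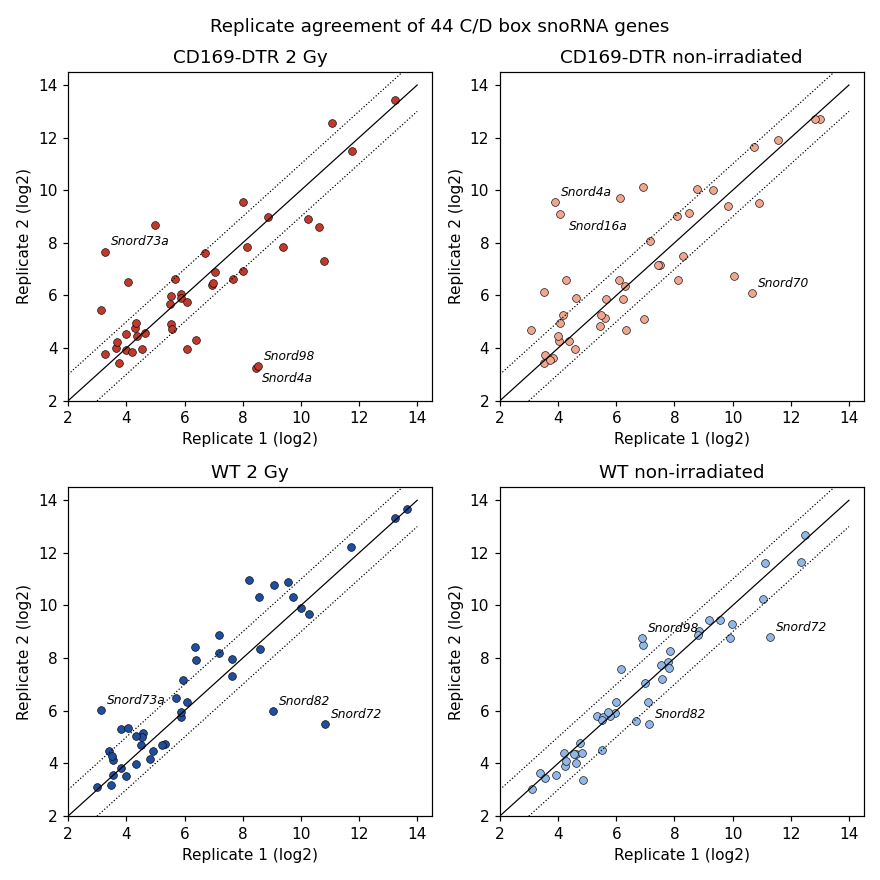
Replicate 2 against replicate 1 (log2 signal) of the 44 C/D box snoRNA genes in each of the 4 groups, with the line of equality and dotted lines at a difference of 1 log2 unit; the 3 genes of largest difference are named. Pairs more than 2 log2 units apart are most frequent in the CD169-DTR groups and least frequent in WT non-irradiated cells. Pairs more than 1 log2 unit apart numbered 16 in CD169-DTR 2 Gy, 16 in CD169-DTR non-irradiated, 15 in WT 2 Gy and 9 in WT non-irradiated cells. The median difference within a pair was 0.56 in CD169-DTR 2 Gy, 0.655 in CD169-DTR non-irradiated, 0.59 in WT 2 Gy and 0.29 in WT non-irradiated cells.

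Of the 44 genes, 3 had a second probe set of their own. The 2 probe sets of Snord13 kept to within 0.08 log2 of each other on every array once each was set to its own mean, and those of Snord58b to within 0.11. The differences between replicates of these 2 genes were thus read alike by both probe sets; whether these share probes was not tested. The second probe set of Snord118 was dim (3.01 to 4.21) and departed from the first by up to 1.19 log2.

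For 20 of the genes, 1 or more genes that contain them had a probe set of their own, which gave 22 pairs with 21 containing genes. The snoRNA had the larger residual SD in 20 of the 22 pairs, with a median of 0.831 for the snoRNAs and 0.132 for the containing genes. Snord16a had a residual SD of 2.28 within Rpl4, whose own SD was 0.03 and whose signal kept between 17.96 and 18.06. Snord70 had 2.03 within Nop58, with 0.14. Snord82 had 1.71 within Ncl, with 0.12. The exceptions were Snord93, with 0.81 against 0.87 for 2700038G22Rik, and Snord123, with 0.231 against 0.238 for Snhg18. None of the 21 containing genes passed the test in any comparison.

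**Figure D4:**
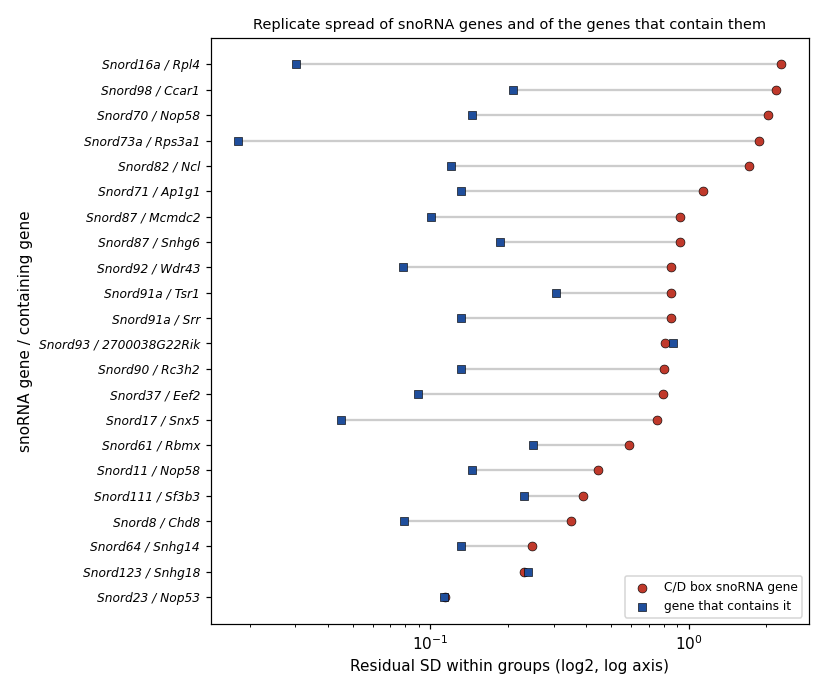
Residual SD within groups (log2 units, log axis) of each C/D box snoRNA gene (red circles) and of the gene that contains it (blue squares), for the 22 pairs measured, joined by grey lines. The circle lies to the right of the square in 20 pairs, and for Snord23 and Nop53 the 2 marks nearly coincide.

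Irradiation was first compared within WT mice. None of the 44 genes passed an adjusted p under 0.05 (limma, Benjamini-Hochberg over all probe sets tested), where 3 of all 30294 probe sets did (0.0099%). At an unadjusted p under 0.05 there were 5 of 44 snoRNA genes, 2 higher and 3 lower, beside 7.81% of all probe sets. The median difference over the 44 genes was 0.07 log2, against 0.08 over all probe sets, with 26 genes higher and 18 lower. With WT 2 Gy replicate 1 left out it was 0.35 log2, and with replicate 2 of that group left out -0.04, so its size and sign depended on 1 array. The groups did not overlap in 18 of the 44 genes (11 higher, 7 lower), and 44.7% of all probe sets did not overlap (31.4% higher, 13.2% lower). A difference of at least 1.5-fold occurred in 20 of 44 genes and in 5.97% of all probe sets, but the median standard error of a difference was also larger for the snoRNA genes, at 0.52 against 0.18 log2. In these bulk samples a lower signal from fewer cells of a type and one from less RNA per cell cannot be told apart.

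Snord90, which lies within Rc3h2 (roquin-2, an RNA-binding ubiquitin ligase), had the smallest p in WT. Its signal was 3.55 and 4.11 on the WT 2 Gy arrays, against 9.56 and 9.44 on the WT non-irradiated arrays. In CD169-DTR cells it was 6.40 and 4.29 on the 2 Gy arrays, against 8.50 and 9.12 on the non-irradiated arrays. All 4 arrays of irradiated cells were thus below all 4 arrays of non-irradiated cells, and both WT 2 Gy arrays lay at about the lower quartile of the array. The difference was -5.67 ± 0.63 log2 (SE; 95% interval -7.19 to -4.15) in WT, with an adjusted p of 0.227 in limma. These are differences of measured signals. The interval covers the spread between arrays only, and limma draws that spread toward the smaller typical spread of all probe sets. The WT 2 Gy signal was not shown to be above background, so the interval does not settle the size of the difference in the RNA. In CD169-DTR the difference of signals was -3.47 ± 0.63 log2 (SE; interval -4.98 to -1.95), with an adjusted p of 0.501 in limma. The mean difference over both genotypes, a comparison added with these values known, was -4.57 ± 0.45 log2 (SE), with an adjusted p of 0.145 in limma, beside 0.0099% of all probe sets that passed. For that mean, 7 of the 44 genes had an unadjusted p under 0.05 (9.23% of all probe sets) and 15 differed by at least 1.5-fold (2.96%). In WT the adjusted p in limma ranged from 0.0329 to 0.755 over the alternative settings. It was 0.0329 without CD169-DTR 2 Gy replicate 1 and also without CD169-DTR 2 Gy replicate 2, which removes the widest pair of the gene from its spread, and above 0.05 under all other settings run. Rc3h2 itself had 9.65 and 9.32 in WT 2 Gy against 9.74 and 9.61 in WT non-irradiated cells, and 9.67 and 9.58 in CD169-DTR 2 Gy against 9.80 and 9.87 in CD169-DTR non-irradiated cells. Its differences of -0.19 ± 0.15 and -0.21 ± 0.15 log2 (SE) did not pass in limma (adjusted p = 0.728 and 0.878).

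The next genes by p in WT were Snord104, Snord61 and Snord42a. Snord104 had 13.22 and 13.33 in WT 2 Gy, against 12.49 and 12.69 in WT non-irradiated cells, a difference of 0.69 ± 0.15 log2 (SE; adjusted p = 0.439 in limma). In CD169-DTR it had 13.25 and 13.43 on the 2 Gy arrays, against 12.99 and 12.71 on the non-irradiated arrays, a difference of 0.49 ± 0.15 log2 (SE; adjusted p = 0.622 in limma). Its 4 arrays of irradiated cells were above its 4 arrays of non-irradiated cells, as one of the genes with the closest replicates. Snord61 had 13.65 and 13.65 in WT 2 Gy, against 12.36 and 11.65 in WT non-irradiated cells, which is 1.65 ± 0.47 log2 (SE; adjusted p = 0.526 in limma). Snord42a, a guide of the small-subunit rRNA in human that lies within Rpl23a, had 7.19 and 8.21 in WT 2 Gy, against 8.84 and 9.03 in WT non-irradiated cells. That difference was -1.24 ± 0.40 log2 (SE; adjusted p = 0.566 in limma). For both genes the WT groups did not overlap.

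In CD169-DTR mice none of the 44 genes passed the adjusted test for 2 Gy against non-irradiated (0% of all probe sets). The unadjusted p was under 0.05 for 9 of 44 genes, 1 higher and 8 lower, beside 6.77% of all probe sets. The median difference was -0.38 log2 over the 44 genes, against 0.04 over all probe sets, and 26 genes were lower and 18 higher. The groups did not overlap in 4 genes with higher and 16 with lower signal after 2 Gy, beside 17.8% and 13.4% of all probe sets. A difference of at least 1.5-fold occurred in 24 genes, beside 6.22% of all probe sets. The median over the 44 genes was -0.63 without CD169-DTR 2 Gy replicate 1 and -0.15 without CD169-DTR non-irradiated replicate 2, so its size rested on single arrays. It was -0.06 log2 when the probe sets that carry a Snord symbol and other symbols were counted too. Set to each gene's mean over the 8 arrays, the median deviation of the 44 genes was -0.23 and -0.06 on the CD169-DTR 2 Gy arrays, against 0.11 and 0.13 on the CD169-DTR non-irradiated arrays. It was -0.04 and 0.34 on the WT 2 Gy arrays, against 0.02 and -0.11 on the WT non-irradiated arrays. The 2 arrays of WT 2 Gy thus differed from each other by more than any 2 group averages of this measure did.

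After Snord90, the genes of smallest p in CD169-DTR were Snord69 and Snord17, with Snord104 next. Snord69, which in human guides the large-subunit rRNA and lies within the nucleostemin gene Gnl3, had 6.08 and 5.76 in CD169-DTR 2 Gy, against 7.51 and 7.14 in CD169-DTR non-irradiated cells. The difference was -1.41 ± 0.27 log2 (SE; adjusted p = 0.516 in limma). In WT it had 5.72 and 6.47 on the 2 Gy arrays, against 5.52 and 5.66 on the non-irradiated arrays, so the CD169-DTR non-irradiated arrays stood above the other 6. Snord17, within the sorting nexin gene Snx5, had 8.01 and 6.93 in CD169-DTR 2 Gy, against 9.32 and 10.01 in CD169-DTR non-irradiated cells. That is -2.20 ± 0.60 log2 (SE; adjusted p = 0.620 in limma), while its WT arrays overlapped, at 7.20 and 8.86 after 2 Gy against 7.86 and 8.27 non-irradiated. The containing gene Snx5 lay between 12.23 and 12.56 on all 8 arrays.

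The 2 Gy differences in CD169-DTR and in WT, which share no arrays, had the same sign in 22 of the 44 genes (11 lower and 11 higher in both), against 57.6% of all probe sets. Across the 44 genes the differences correlated with an r of 0.21 and a rho of 0.01, and with an r of -0.12 without Snord90. Over all probe sets the r was 0.17. Genes are not independent replicates, and no p was computed.

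**Figure D5:**
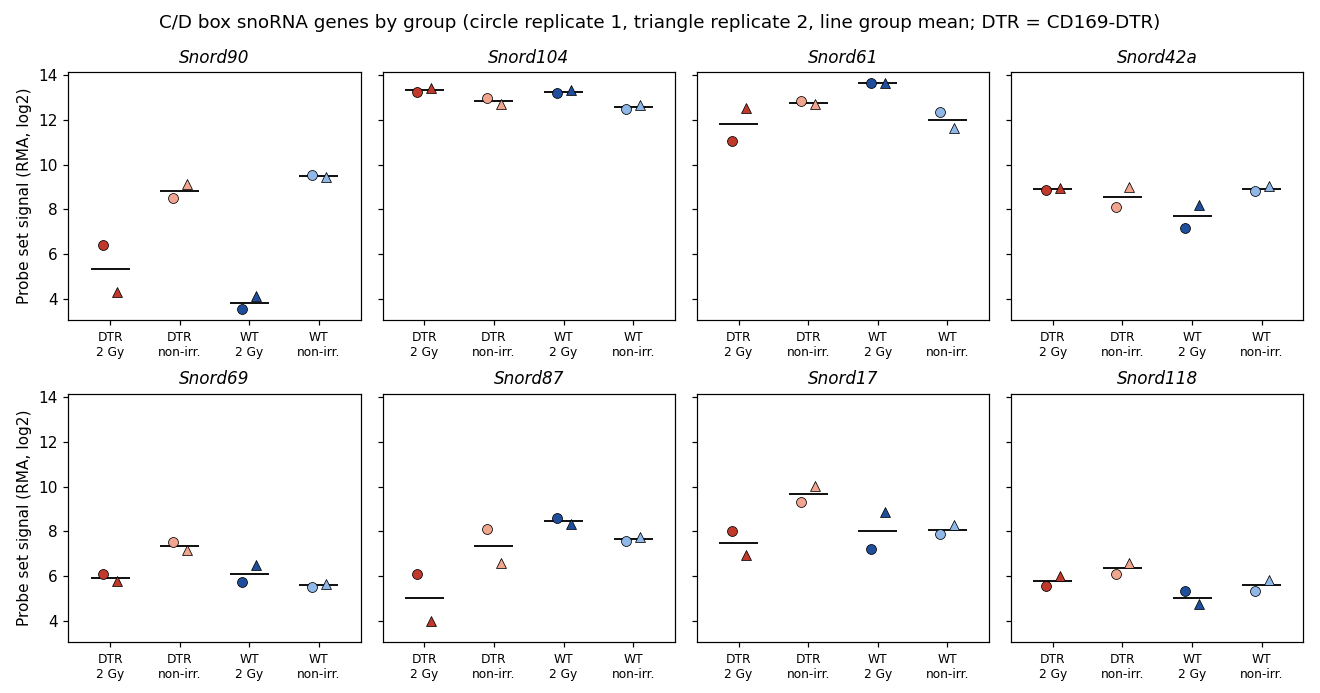
Log2 signal of 8 C/D box snoRNA genes in the 4 groups (DTR, CD169-DTR), with replicate 1 as a circle, replicate 2 as a triangle and the group mean as a line. Snord90 was lower on all 4 arrays of irradiated cells, Snord104 was higher on them by less than 1 log2 unit, and none of the other 6 genes separates all irradiated from all non-irradiated arrays.

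The genotype comparison without irradiation, CD169-DTR non-irradiated against WT non-irradiated, sets the 2 toxin-treated genotypes against each other. The depletion of macrophages is not measured by these arrays, and it cannot be told apart from the other effects of the genotype. None of the 44 genes passed the adjusted test (0% of all probe sets), and 7 had an unadjusted p under 0.05 (5 higher, 2 lower), beside 4.38% of all probe sets. The median difference was 0.10 log2, against 0.03 over all probe sets. Signals did not overlap in 17 genes (10 higher, 7 lower), beside 31% of all probe sets. Snord69 had the smallest p, at 7.51 and 7.14 in CD169-DTR against 5.52 and 5.66 in WT, a difference of 1.74 ± 0.27 log2 (SE; adjusted p = 0.936 in limma). Snord111, within the splicing factor gene Sf3b3, had 4.06 and 4.96 in CD169-DTR, against 3.38 and 3.63 in WT. Its WT arrays lay below the lower quartile of the array. Snord123 had 5.44 and 4.82 in CD169-DTR, against 5.77 and 5.78 in WT. Snord35b had 5.62 and 5.16 in CD169-DTR, against 4.81 and 4.38 in WT. The adjusted p of each of these 3 genes was 0.999 in limma.

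After irradiation, CD169-DTR 2 Gy was compared with WT 2 Gy. None of the 44 genes passed the adjusted test (0% of all probe sets), and 8 had an unadjusted p under 0.05 (3 higher, 5 lower), beside 7.57% of all probe sets. The median difference was -0.20 log2, against -0.02 over all probe sets, with 18 genes higher and 26 lower. It was -0.55 with WT 2 Gy replicate 1 left out and 0.05 with replicate 2 of that group left out, so its sign depended on 1 array. Groups did not overlap in 15 genes, 5 higher and 10 lower, beside 16% and 18.9% of all probe sets (34.9% in either direction). A difference of at least 1.5-fold occurred in 21 genes, beside 6.42% of all probe sets. Snord87, a guide of the large-subunit rRNA in human that lies within the non-coding host gene Snhg6, had 6.08 and 3.98 in CD169-DTR 2 Gy, against 8.60 and 8.34 in WT 2 Gy cells. The difference was -3.44 ± 0.73 log2 (SE; adjusted p = 0.551 in limma), and the 2 CD169-DTR arrays differed from each other by 2.10. Snhg6 had 7.03 and 6.87 in CD169-DTR 2 Gy, against 7.38 and 7.57 in WT 2 Gy, a difference of -0.53 ± 0.18 log2 (SE; adjusted p = 0.645 in limma).

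Snord61 had 11.06 and 12.55 in CD169-DTR 2 Gy, against 13.65 and 13.65 in WT 2 Gy, a difference of -1.85 ± 0.47 log2 (SE; adjusted p = 0.619 in limma). The gene that contains it, Rbmx, an RNA-binding protein gene, had 11.67 and 11.57 in CD169-DTR 2 Gy, against 11.06 and 11.44 in WT 2 Gy. Its difference was thus of the opposite sign, at 0.37 ± 0.22 log2 (SE; adjusted p = 0.745 in limma). Snord42a had 8.87 and 8.97 in CD169-DTR 2 Gy, against 7.19 and 8.21 in WT 2 Gy, a difference of 1.22 ± 0.40 log2 (SE; adjusted p = 0.644 in limma). Snord8, within the chromatin remodeller gene Chd8, had 7.03 and 6.90 in CD169-DTR 2 Gy, against 7.63 and 7.96 in WT 2 Gy. This was -0.83 ± 0.29 log2 (SE; adjusted p = 0.645 in limma).

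The difference of the 2 Gy effect between genotypes, CD169-DTR minus WT, was tested in the same model. It passed the adjusted test for none of the 44 genes (0% of all probe sets), and 7 had an unadjusted p under 0.05 (2 higher, 5 lower), beside 5.17% of all probe sets. The median of this difference was -0.31 log2 over the 44 genes, against -0.05 over all probe sets, and it ranged from -0.65 without WT non-irradiated replicate 1 to -0.12 without WT 2 Gy replicate 2. Snord69 came first, at -1.91 ± 0.38 log2 (SE; adjusted p = 0.778 in limma), from -1.41 in CD169-DTR and 0.51 in WT. Snord61 gave -2.61 ± 0.66 log2 (SE; adjusted p = 0.875 in limma), Snord87 gave -3.16 ± 1.03 (adjusted p = 0.913) and Snord42a gave 1.61 ± 0.56 (adjusted p = 0.921). For Snord90, whose signal after 2 Gy was lower in both genotypes, it was 2.21 ± 0.90 log2 (SE; adjusted p = 0.933 in limma). With 2 arrays a group, the median standard error of this difference was 0.73 log2 for the snoRNA genes, against 0.25 for all probe sets.

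Of the snoRNAs that act in the maturation of the rRNA precursor, Snord118 and Snord13 had closer replicates than the Snord14 paralogues, with residual SDs of 0.36 and 0.42 against 1.46 and 1.26. Snord118, which is needed for the large-subunit rRNA, had 5.55 and 5.98 in CD169-DTR 2 Gy and 6.08 and 6.59 in CD169-DTR non-irradiated cells. It had 5.33 and 4.73 in WT 2 Gy and 5.35 and 5.81 in WT non-irradiated cells. The 2 Gy arrays were below the non-irradiated arrays in both genotypes, by -0.57 ± 0.30 and -0.55 ± 0.30 log2 (SE; adjusted p = 0.816 in CD169-DTR and 0.671 in WT, limma). Its dim second probe set gave -0.05 in CD169-DTR and -0.59 in WT. Snord13 had 11.77 and 11.49 in CD169-DTR 2 Gy, 10.73 and 11.65 in CD169-DTR non-irradiated, 11.74 and 12.24 in WT 2 Gy and 11.12 and 11.60 in WT non-irradiated cells. Its 2 Gy differences were 0.44 ± 0.34 in CD169-DTR and 0.63 ± 0.34 log2 in WT (SE; adjusted p = 0.894 and 0.672 in limma), and the 2 CD169-DTR groups overlapped. The 2 measured paralogues of Snord14 (U14), which pairs with the small-subunit rRNA, were Snord14a within Rps13 and Snord14e within the chaperone gene Hspa8, and signal shared between paralogues cannot be told apart. Snord14a had 7.66 and 6.64 in CD169-DTR 2 Gy, 6.11 and 9.70 in CD169-DTR non-irradiated, 8.56 and 10.33 in WT 2 Gy and 7.77 and 7.84 in WT non-irradiated cells. Snord14e had 8.13 and 7.84 in CD169-DTR 2 Gy, 10.03 and 6.73 in CD169-DTR non-irradiated, 9.74 and 10.32 in WT 2 Gy and 9.92 and 8.78 in WT non-irradiated cells. In CD169-DTR non-irradiated cells replicate 2 was the higher array for Snord14a and replicate 1 for Snord14e.

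Of the snoRNAs of the Rpl13a host, Snord35a was measured singly. It had 5.66 and 6.64 in CD169-DTR 2 Gy, 4.62 and 5.91 in CD169-DTR non-irradiated, 7.63 and 7.30 in WT 2 Gy and 7.09 and 6.34 in WT non-irradiated cells. CD169-DTR arrays were below WT arrays of the same treatment, by -1.32 ± 0.51 log2 after 2 Gy and -1.45 ± 0.51 without it (SE; adjusted p = 0.648 and 0.999 in limma). Its paralogue Snord35b did not have this order. Snord32a, Snord33 and Snord34 of the same host, Snord47 of Gas5, and Snord22 were measured only on probe sets with several symbols and were not analysed here. Of the imprinted clusters, whose snoRNAs are known mainly from brain, only Snord64 was measured singly, with signals from 3.97 to 4.53 on the 8 arrays.

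Of 13 genes listed for proteins that bind or assemble box C/D snoRNAs, 10 were measured, and none of the 10 passed the adjusted test in any of the 5 comparisons. Their median 2 Gy difference was 0.06 log2 in CD169-DTR and 0.03 in WT, against 0.04 and 0.08 over all probe sets. In CD169-DTR 2 Gy against WT 2 Gy, 9 of the 10 were higher, with a median difference of 0.26 log2 against -0.02 over all probe sets. An unadjusted p under 0.05 in limma was found for 2 of the 10, beside 7.57% of all probe sets. Without irradiation the median difference between genotypes was 0.14 log2, against 0.03 over all probe sets, and for the difference of the 2 Gy effect it was 0.21, against -0.05. Fibrillarin (Fbl) lay between 15.11 and 15.43 on the 8 arrays and Nop58 between 14.53 and 14.89. Among assembly factors, Pih1d1 had 10.62 and 10.97 in WT 2 Gy, against 11.28 and 11.14 in WT non-irradiated cells (adjusted p = 0.602 in limma). Ruvbl2, an ATPase of the assembly complex, had 11.48 and 11.67 in CD169-DTR 2 Gy, against 10.60 and 11.21 in WT 2 Gy cells (adjusted p = 0.645 in limma). Of 37 genes listed as hosts of box C/D snoRNAs, 17 were measured and none passed the adjusted test in any of the 5 comparisons. The smallest adjusted p among hosts for 2 Gy in WT was that of Eef2, the translation elongation factor, with 15.82 and 15.81 in WT 2 Gy against 16.39 and 16.17 in WT non-irradiated cells (adjusted p = 0.508 in limma). The host genes had a median residual SD of 0.132 and the protein genes one of 0.257, both below the 0.649 of the snoRNA genes.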

How the data were processed

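RNA of LT-HSC was measured on 8 Affymetrix arrays, 2 in each of 4 groups. The authors deposited RMA values, per the submitters' processing notes, with each probe set summarised once on every array. These deposited values were read as log2, the convention of RMA, although the table names no base. They were used as deposited, with 2 decimals. The gene table gave 1 symbol to 30294 of 40161 probe sets, several to 2145 and none to 7722. Through Entrez IDs 827 symbols were updated to the RefSeq table of GRCm38.p6, which was used only for names and for genes within genes. All 44 snoRNA genes matched it, and no coordinates are given because the build of the array is not named.

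A model with 1 mean per group was fitted to all 8 arrays with limma 3.58.1 (lmFit and eBayes) in R 4.3.3. It had 4 residual and 2.59 prior degrees of freedom. The standard errors, intervals and p-values thus draw each gene's spread toward a prior SD of 0.164 log2. Most of the snoRNA genes had a larger residual SD (median 0.649). For those genes the standard errors are smaller than their own arrays alone would give. Tests were two-sided and adjusted by Benjamini-Hochberg over the 30294 probe sets. The replicates came from distinct experiments per the labels, which do not say whether a sample was 1 animal. The p-values therefore rest on the spread between these samples, as moderated by limma. The script was tested on simulated data.

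The snoRNA genes, the lists and the comparisons were chosen with earlier results of these data known. Named genes were the 4 of smallest p in each of 5 comparisons, the 6 of highest and 3 of lowest mean, those of largest and smallest replicate difference, and those with a role in rRNA processing or from the Rpl13a, Gas5 and imprinted hosts. Snord93 was named after its values were seen. Same-numbered arrays did not deviate together in every pair (r from -0.088 to 0.159), so replicate numbers were not taken as pairs. Alternatives were other normalisations, filters, probe set choices, array weights, fits to the groups compared, a replicate block and each array left out.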

Additional observations from a re-analysis of the deposited data

How the results depend on the processing

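Many of the alternatives could not change the direction of a difference. Filters, array weights, the replicate block and fits to the groups compared leave a difference of group means as it is. So does leaving out an array of another group. Leaving out 1 array also cannot reverse a difference between groups that do not overlap, and the named differences were those of smallest p. Within these limits, the 24 named differences kept their direction under all 400 alternatives run. Only Snord90 passed under any of them, without either CD169-DTR 2 Gy array, in WT (adjusted p = 0.0329 for each, limma) and in the mean of both genotypes (0.0209 and 0.0191). Leaving out 1 array therefore gave 0 to 1 genes in these 2 comparisons and 0 to 0 in the other 4. An unadjusted p under 0.05 with at least 1.5-fold was also used in place of the adjusted p. By this rule 5 genes counted for 2 Gy in WT, 8 for 2 Gy in CD169-DTR and 7 for genotype without irradiation. There were 8 for genotype after 2 Gy, 7 for the difference of the 2 Gy effect and 6 for the mean of both genotypes. In the same order, at least 1.5-fold alone held for 5.97%, 6.22%, 4%, 6.42%, 11.1% and 2.96% of all probe sets. The share that met both conditions cannot be larger, and its size is not given here. The standard errors of the snoRNA genes were also larger, so these counts alone do not show a response of the set. With the replicate number as a block, 0 genes passed in each comparison, and the adjusted p of Snord90 in WT was 0.412.

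The median difference of the snoRNA genes moved more. Without dim probe sets it was 0.265 log2 for 2 Gy in WT, -0.635 for 2 Gy in CD169-DTR, -0.735 for the difference of the 2 Gy effect and -0.287 for the mean of both genotypes. With the dimmer probe set of each gene it was -0.22 for 2 Gy in CD169-DTR, and with all Snord probe sets -0.055. Without both far 2 Gy arrays, chosen after seeing the data, it was 0.353 for 2 Gy in WT, -0.455 for genotype after 2 Gy and -0.59 for the difference of the 2 Gy effect. Leaving out 1 array gave -0.035 to 0.353 for 2 Gy in WT, -0.63 to -0.148 in CD169-DTR, 0.065 to 0.115 for genotype without irradiation, -0.55 to 0.0475 after 2 Gy, -0.65 to -0.123 for the difference of the 2 Gy effect and -0.286 to 0.0763 for the mean of both genotypes. The cause was not tested. Dim signal may flatten differences of the 7 genes that are dim on average, and also of genes near the lower quartile in some arrays only, such as Snord90 and Snord98 in WT 2 Gy.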
